A study of Mus musculus with 8 samples.

Results

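The genes studied here code for respiratory complexes II to V: succinate dehydrogenase, the cytochrome bc1 complex, cytochrome c oxidase and ATP synthase, with cytochrome c, which carries electrons between the cytochrome bc1 complex and cytochrome c oxidase. They were taken by their symbols, as the rows of the deposited count table named Sdha to Sdhd, Uqcr, Cox4 to Cox8, Atp5, Cyc1 or Cycs. This gave 50 of 23336 rows. Of these, 46 are nuclear genes for subunits, cytochrome c included, and 4 carry such a symbol without coding for a subunit of complexes II to V. Those 4 are Cox4nb, now Emc8, a gene of the endoplasmic reticulum membrane complex; Cox7a2l, a factor that joins respiratory complexes into supercomplexes; Atp5s, a factor related to ATP synthase; and Atp5sl, now Dmac2.

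The samples were skeletal muscle of C57BL/6 mice at postnatal day 2, all female by their labels. There were 4 samples of mice with the ΔDMR1-U2 deletion at the imprinted Igf2 locus and 4 of wild-type mice, with the library names 1A, 1B, 2 and 3 in each group. The series concerns transcripts of Igf2as, which runs antisense to Igf2, the gene for insulin-like growth factor 2. Which muscle was taken, whether animals were pooled, from which parent the deletion came and what 1A and 1B share is not stated in the labels, so p-values measure the spread between these samples. No Cre, transgene or treatment is named for either group.

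The inner membrane of mitochondria holds these complexes. Succinate dehydrogenase oxidises succinate in the citric acid cycle and passes the electrons to ubiquinone. The cytochrome bc1 complex moves them from ubiquinol to cytochrome c, cytochrome c oxidase passes them to oxygen, and the proton gradient that builds up drives ATP synthase. Muscle relies on this chain for sustained contraction, and cytochrome c oxidase there contains muscle-type versions of some subunits, which take over from the ubiquitous versions as muscle matures.

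The total count per library was 16781493 to 20060129 for the ΔDMR1-U2 group and 16084413 to 26913636 for the wild-type group. Igf2as was at 5.55 to 6.18 CPM (read counts scaled by library size) with the deletion and at 54.4 to 72.2 CPM without it, so the groups followed their labels. ΔDMR1-U2 library 1B stood apart from the others on the first principal component, and ΔDMR1-U2 library 1A had an Xist count of 49 (Xist coats the inactive X chromosome), against 21122 to 42121 in the other 7 libraries, which goes against its label of female. The main results are therefore also given without both. All 16 muscle fibre markers passed the filter on low counts, and their sum reached 177098 to 229443 CPM, so the labelled tissue's defining markers were present. RNA came from whole tissue, so fewer cells of a type and less RNA per cell cannot be told apart.

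Genes of complexes II to V tended to lower values in ΔDMR1-U2 muscle, by small amounts. Of the 50 genes, 48 passed the filter; Cox7b2 had 1 count in a single library and Cox8c, the testis form of subunit 8, had 0 counts in all 8. Of the 48, 3 fell (Cyc1, Atp5g1 and Atp5g3) and 0 rose at an adjusted p under 0.05 over all 15241 genes tested (edgeR quasi-likelihood test, Benjamini-Hochberg). Over all genes tested, 0.617% fell and 0.512% rose by the same rule. The log2 fold change of ΔDMR1-U2 over wild-type was below 0 in 45 of 48, or 93.8%, against 50.2% of all genes. The median was -0.18, against -0.00 over all genes, and the range was -0.39 to 0.29. Of the 44 tested genes that code for subunits, 43 were below 0, with a median of -0.18. With libraries scaled by their total counts, 41 of 48 were below 0, against 40.4% of all genes, and the median was -0.13, against 0.05. Without ΔDMR1-U2 libraries 1A and 1B, 44 of 48 were below 0, against 51.2% of all genes, and the median was -0.17, against -0.01.

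At an unadjusted p under 0.05 (edgeR), 23 of the 48 (47.9%) were lower, against 10.9% of all genes, and 2 were higher, Cox7a2l and Atp5sl, against 10.4%. Among the 44 that code for subunits, 22 (50%) were lower and 0 were higher. The 4 ΔDMR1-U2 values lay below all 4 wild-type values for 13 genes (27.1%), against 6.38% of all genes. They lay above them for 1 gene, Cox7a2l, against 6.4% of all genes. The groups overlapped for the other 34. The genes move together across libraries, so these counts are not independent of each other. The 3 calls were lost when any library but ΔDMR1-U2 library 2 was left out, and without ΔDMR1-U2 libraries 1A and 1B together, where 0 of the 48 were called, against 0.0328% of all genes called lower, and 13 were lower at an unadjusted p under 0.05 (edgeR), against 7.01% of all genes. With 1 library left out at a time the latter count ran from 13, when ΔDMR1-U2 library 3 or else wild-type 1A was left out, to 28; it was 15 without ΔDMR1-U2 library 1B. Over all genes it ran from 1172 to 1895. In the authors' deposited table no gene of the set had an adjusted p under 0.05, against 0.887% of all genes with a value, and Cyc1 (0.0606) and Atp5g1 (0.0661) came closest. DESeq2, run on the same counts, called 9 lower: Cyc1, Atp5g1, Atp5g3, Cox5a, Atp5k, Cox6a1, Uqcrc1, Sdha and Cox6b1, and 0 higher. By that test 3.32% of all genes were called lower and 2.82% higher.

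**Figure D1:**
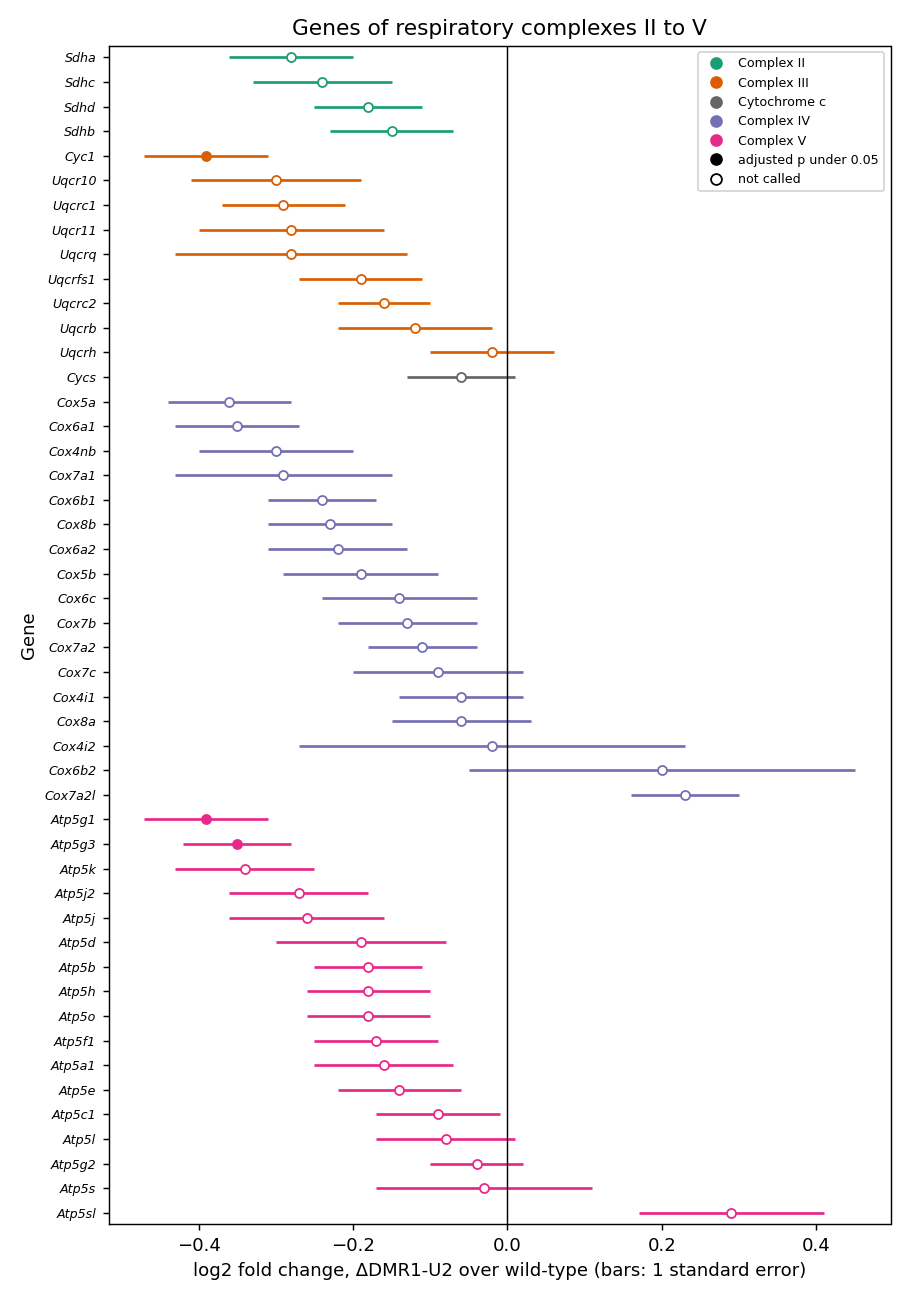
Log2 fold change of ΔDMR1-U2 over wild-type (x axis) for the 48 tested genes (y axis), grouped and coloured by complex, with Cox4nb and Cox7a2l drawn with complex IV and Atp5s and Atp5sl with complex V; bars are 1 standard error. Most points lie left of 0, the 3 filled points (Cyc1, Atp5g1 and Atp5g3) have an adjusted p under 0.05, and Cox6b2, Cox7a2l and Atp5sl lie right of 0.

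The members made up 0.832% ± 0.023 (SD, n = 4) of all counts in the ΔDMR1-U2 group and 0.912% ± 0.0534 (SD, n = 4) in the wild-type group. Per library, the median of the 48 genes against the wild-type mean, on the log2 scale, was -0.17, -0.23, -0.07 and -0.23 for the ΔDMR1-U2 group (1A, 1B, 2, 3). It was 0.12, -0.01, -0.14 and 0.04 for the wild-type group. The groups overlapped, because ΔDMR1-U2 library 2 lay above wild-type library 2. The muscle fibre markers followed a like course over the libraries. Their medians were -0.24, -0.30, -0.12 and -0.30 in ΔDMR1-U2 libraries and 0.13, -0.10, -0.08 and 0.06 in wild-type libraries, in the same order. Of the 16 markers, 15 had a log2 fold change below 0 (93.8%, against 50.2% of all genes), with a median of -0.22. At an unadjusted p under 0.05 (edgeR), 9 were lower (56.2%, against 10.9% of all genes) and 1 was higher (against 10.4%). Of the 16, 1 was called (against 0.617% of all genes called lower), Tnnc2, the fast troponin C. It fell by 0.39 (adjusted p = 0.0348, edgeR). DESeq2 called 5 of the 16 lower, against 3.32% of all genes. The summed markers were at 177098 to 199368 CPM in the ΔDMR1-U2 group and 195054 to 229443 CPM in the wild-type group, and none of the markers was at 0. Set against that sum, a measure chosen after its values were seen, the members came to 4.37% ± 0.155 (SD, n = 4) in the ΔDMR1-U2 group and 4.42% ± 0.242 (SD, n = 4) in the wild-type group, which overlapped. Most of that sum came from 1 gene, Ttn (titin). Its mean was 111232 of 187514 CPM in the ΔDMR1-U2 group and 123527 of 210655 CPM in the wild-type group. The percentages therefore stand largely for the members against Ttn. The part of muscle fibre RNA in the values of single genes was not tested.

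**Figure D2:**
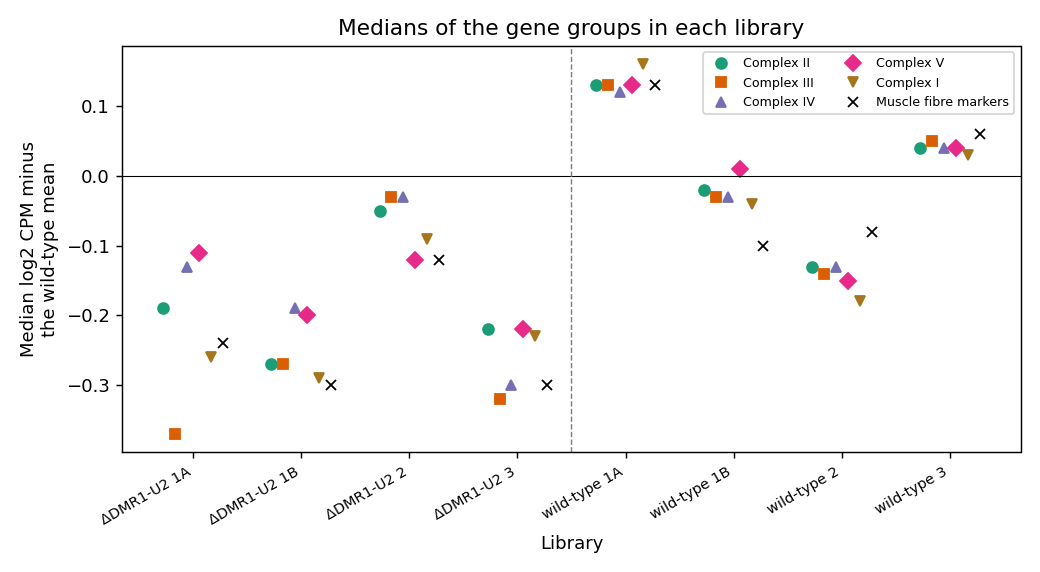
Median log2 CPM minus the wild-type mean (y axis) in each of the 8 libraries (x axis) for the genes of complexes II, III, IV and V, for genes taken by symbol for complex I and for muscle fibre markers. Cox4nb and Cox7a2l are counted with complex IV, and Atp5s and Atp5sl with complex V. In wild-type library 1A all 6 medians lie above 0, in wild-type library 2 and in the 4 ΔDMR1-U2 libraries all lie below 0, and ΔDMR1-U2 library 2 lies nearest to 0 among the ΔDMR1-U2 libraries for most groups.

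Levels of markers of other cells are set beside these values. White adipocyte markers came to 289 to 817 CPM in the ΔDMR1-U2 group and 218 to 309 CPM in the wild-type group, with 0 of 8 tested called. All 8 had a log2 fold change above 0, where 50.2% of all genes were below 0, and the median was 0.73. The highest sum was in ΔDMR1-U2 library 1B. Brown adipocyte markers came to 142 to 175 and 114 to 142 CPM. Of 7 tested, 1 rose, Cidea, a lipid droplet protein, by 1.07 (adjusted p = 0.0301, edgeR), against 0.512% of all genes called higher. Ucp1, the defining gene of brown fat, had 0 to 3 counts in any library. Schwann cell markers came to 285 to 354 and 202 to 274 CPM (median 0.63, 0 of 6 called). Fibroblast and tendon markers came to 21003 to 26809 and 24472 to 33578 CPM (median -0.27, 0 of 10 called), and cartilage and bone markers to 43.4 to 686 and 60 to 1374 CPM (median -0.72, 0 of 8 called). The cartilage and bone sum was 43.4 CPM in ΔDMR1-U2 library 3 and 60 CPM in wild-type library 1A, against 387 to 1374 CPM in the remaining libraries. Slow fibre and heart markers came to 1792 to 2160 and 1791 to 2348 CPM (median -0.16, 0 of 12 called). Keratinocyte markers (14.3 to 34.7 and 12.8 to 19.6 CPM, median 0.51), endothelial markers (507 to 556 and 524 to 563 CPM, median 0.10), macrophage markers (239 to 276 and 260 to 334 CPM, median -0.08) and erythroid markers (27.1 to 60.4 and 38.6 to 92 CPM, median -0.12) had 0 called. Among the lists with 0 called by edgeR, DESeq2 called 1 white adipocyte and 2 Schwann cell markers higher and 1 endothelial marker lower. DESeq2 called 2.82% of all genes higher and 3.32% lower. At an unadjusted p under 0.05, edgeR had 3 of 8 white adipocyte and 4 of 6 Schwann cell markers higher, with at most 2 in one direction in the others. By the same rule 10.4% of all genes were higher and 10.9% lower. The globin genes Hba-a2, Hbb-b1 and Hbb-b2 were at 0 in every library, while Alas2, another erythroid marker, was at 19 to 71.4 CPM. The erythroid sum therefore holds no reads of these globin genes, and why they were at 0 was not tested. The part of any of these cell types in the values of complexes II to V was not tested.

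In complex II, the 4 subunits had log2 fold changes of -0.28 to -0.15, with a median of -0.21. By edgeR 0 were called (against 0.617% of all genes called lower) and 3 were lower at an unadjusted p under 0.05 (against 10.9%). DESeq2 called 1 lower, Sdha, against 3.32% of all genes. Sdha, the flavoprotein that oxidises succinate, was at 341, 327, 295 and 336 CPM with the deletion (libraries 1A, 1B, 2 and 3) and at 383, 357, 409 and 426 CPM in wild-type muscle (the same names in turn); the values below follow this order. The groups did not overlap, and ΔDMR1-U2 library 2 was the lowest. The log2 fold change was -0.28 (standard error 0.08), which missed the threshold (adjusted p = 0.0891, edgeR). Sdhb, the iron-sulfur subunit, was at 116, 115, 132 and 113 against 146, 130, 117 and 135 CPM, and its groups overlapped (-0.15, standard error 0.08). The membrane anchors Sdhc and Sdhd were at -0.24 and -0.18. Summed over the 4 genes, complex II was at 695 ± 15.9 CPM in ΔDMR1-U2 (673 to 708) and 816 ± 39.3 CPM in wild-type libraries (774 to 852; SD, n = 4 each), without overlap. Per kilobase of transcript, Sdha (136 ± 10.4 CPM per kb) and Sdhd (135 ± 8.87) stood level in wild-type muscle, followed by Sdhb (116 ± 10.4) within their spread, and Sdhc was lower at 39.1 ± 3.51 (SD, n = 4 each).

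Complex III had a median of -0.28, with all 9 subunits below 0 (against 50.2% of all genes). Of the 9, 6 were lower at an unadjusted p under 0.05 (edgeR, against 10.9%), and 1 was called (against 0.617% called lower). With 1 library left out at a time the median ran from -0.33 to -0.17, the latter without wild-type library 1A. Without ΔDMR1-U2 libraries 1A and 1B the medians of complexes II, III, IV and V were -0.15, -0.22, -0.17 and -0.15. These medians count Cox4nb and Cox7a2l with complex IV, and Atp5s and Atp5sl with complex V. Differences between the complexes were not tested. Cyc1 (ENSMUSG00000022551.8, chr15:76343523-76346260 of mm10, plus strand) codes for cytochrome c1, the haem protein that hands electrons to cytochrome c. It was at 119, 114, 131 and 123 CPM with the deletion and 175, 151, 145 and 167 CPM in wild-type muscle. Every ΔDMR1-U2 value lay below every wild-type value, with ΔDMR1-U2 library 2 and wild-type library 2 closest to each other. Cyc1 fell by 0.39 (log2, standard error 0.08, adjusted p = 0.0426, edgeR). With 1 library left out at a time its log2 fold change ran from -0.43 to -0.35, and its adjusted p from 0.027 to 0.13 (edgeR). Without ΔDMR1-U2 libraries 1A and 1B it was -0.33 (adjusted p = 0.17, edgeR).

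Of the other subunits none was called by edgeR, and Uqcrc1 was by DESeq2, which called 3.32% of all genes lower. Uqcrc1, a core protein, was at 210, 229, 246 and 238 against 308, 275, 255 and 292 CPM, and its groups did not overlap (-0.29, adjusted p = 0.081, edgeR). Uqcrc2 was at -0.16, also without overlap; 24.8% of the 50-base windows of its transcript occur in another gene, and its exons overlap Pdzd9 on the other strand. Uqcrfs1, the Rieske iron-sulfur protein, was at -0.19, and the small subunits Uqcr10, Uqcr11, Uqcrq and Uqcrb were at -0.30, -0.28, -0.28 and -0.12, each with overlapping groups. Uqcrh, the hinge protein beside cytochrome c1, was at 178, 153, 159 and 144 against 157, 170, 150 and 165 CPM. Its groups lay in the same range, at a log2 fold change of -0.02 (standard error 0.08), and at 0.03 with libraries scaled by total counts. It was also the most abundant of the 9 per kilobase, at 293 ± 16.1 CPM per kb in wild-type muscle, above Uqcr10 at 189 ± 30.1 (SD, n = 4 each). Summed, complex III was at 1172 ± 55.5 CPM in the ΔDMR1-U2 group and 1360 ± 99.3 CPM in the wild-type group (1130 to 1252 and 1225 to 1449; SD, n = 4 each), which overlapped.

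Cycs, cytochrome c, was at 101, 88.4, 94.9 and 91.2 against 104, 101, 89.3 and 97.7 CPM, and its groups overlapped (-0.06, standard error 0.07). Of the 50-base windows of its transcript, 28.5% occur in other annotated genes, 10 of them pseudogenes.

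**Figure D3:**
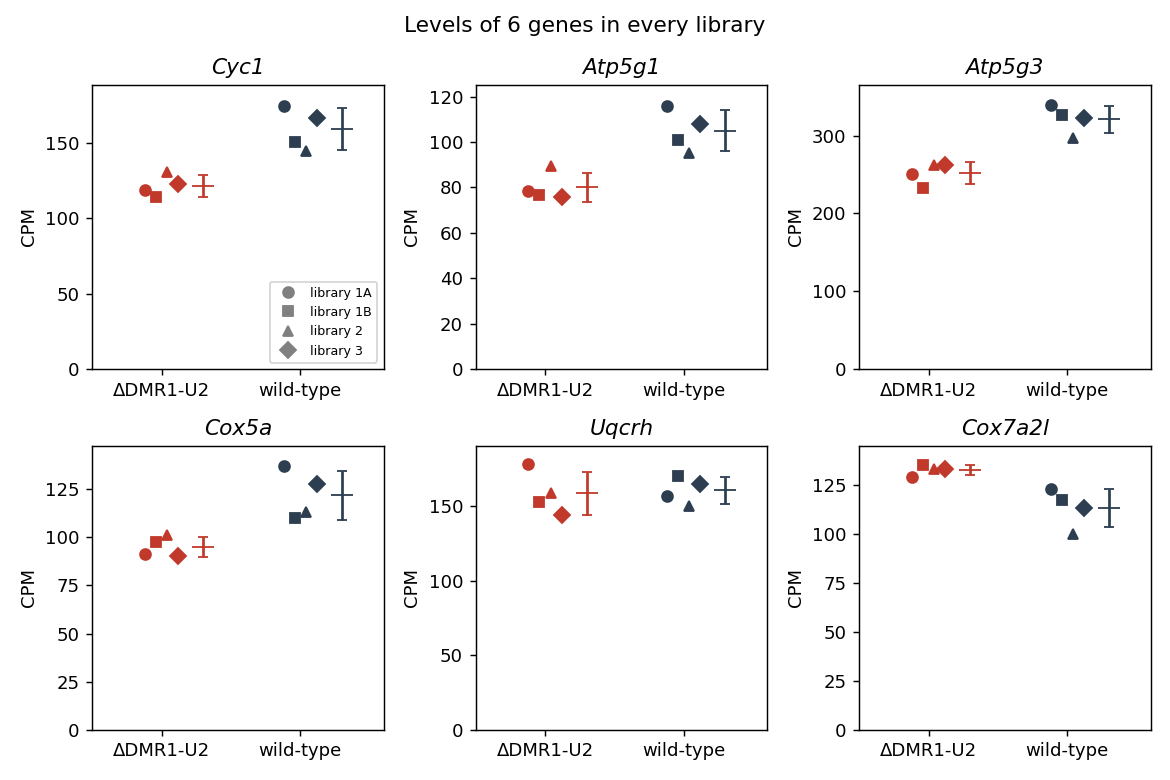
CPM (y axes, from 0) in every library of ΔDMR1-U2 and wild-type samples (x axes) for Cyc1, Atp5g1, Atp5g3, Cox5a, Uqcrh and Cox7a2l; marker shapes give the library name, and the bar beside each group gives the mean and 1 SD (n = 4). The groups are apart for 5 genes, with Cox7a2l higher and the other 4 lower in ΔDMR1-U2, and they overlap for Uqcrh.

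In complex IV, none of the 17 tested genes, Cox4nb and Cox7a2l included, was called. Of the 17, 15 were below 0 (against 50.2% of all genes), and the median was -0.14. At an unadjusted p under 0.05 (edgeR), 6 of the 15 were lower, against 10.9% of all genes. The median of the 17 was -0.08 without ΔDMR1-U2 library 3. For the subunits alone, 14 of 15 were below 0, 5 of them at an unadjusted p under 0.05 (edgeR), with a median of -0.14. DESeq2 called 3 lower, Cox5a, Cox6a1 and Cox6b1, against 3.32% of all genes. The lowest was Cox5a, a subunit that faces the matrix. It was at 91.4, 97.4, 101 and 90.1 CPM with the deletion and 137, 110, 113 and 128 CPM in wild-type muscle, without overlap (-0.36, standard error 0.08, adjusted p = 0.0575, edgeR). Cox5a shares 32% of its 50-base windows with 3 other genes, 2 of them pseudogenes, and its exons overlap Gm26631 on the other strand. Cox6b1, which lies on the intermembrane side, was at 154, 141, 155 and 136 against 178, 181, 158 and 175 CPM, also without overlap (-0.24, adjusted p = 0.0993, edgeR). The ubiquitous Cox4i1 was the most abundant per kilobase, at 379 ± 33.7 CPM per kb in wild-type muscle (SD, n = 4). Its counts were at 259, 278, 284 and 264 against 307, 287, 247 and 289 CPM, and wild-type library 2 was the lowest of all 8 (-0.06, standard error 0.08). Cox4i1 and Cox4nb, which was at -0.30 (adjusted p = 0.129, edgeR), overlap at their exons on opposite strands. Cox5b, Cox6c, Cox7b and Cox7c were at -0.19, -0.14, -0.13 and -0.09, and Cox4i2 and Cox6b2, the lung and testis forms of subunits 4 and 6B, stayed under 2.2 CPM in every library.

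Cox7a2l, the supercomplex factor, had a value above 0, unlike most subunits. It was at 129, 135, 133 and 133 CPM with the deletion and 123, 117, 99.9 and 113 CPM in wild-type muscle. The ΔDMR1-U2 values lay close together and above all wild-type values, and the log2 fold change was 0.23 (standard error 0.07). It missed the threshold (adjusted p = 0.107 by edgeR and 0.0505 by DESeq2), and 19.8% of its 50-base windows also occur in a pseudogene.

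Mice carry muscle-type and ubiquitous forms of 3 subunits of cytochrome c oxidase. For subunit 6A, the muscle-type Cox6a2 was at 121, 128, 131 and 116 CPM with the deletion and 167, 135, 127 and 147 CPM in wild-type muscle, and the groups overlapped at ΔDMR1-U2 libraries 1B and 2 and wild-type library 2 (-0.22, standard error 0.09, adjusted p = 0.183, edgeR). The ubiquitous Cox6a1 was at 41.7, 45.9, 53.2 and 48.1 against 64, 62.3, 57 and 57.3 CPM, without overlap (-0.35, standard error 0.08, adjusted p = 0.0644, edgeR). Per kilobase, Cox6a2 was above Cox6a1 in wild-type muscle, at 212 ± 25.6 against 105 ± 6.24 CPM per kb (SD, n = 4 each). For subunit 7A, the muscle-type Cox7a1 was at 27.4, 21.8, 26.5 and 19.8 against 28.1, 27.9, 24.3 and 36.6 CPM, with overlap (-0.29, standard error 0.14, adjusted p = 0.257, edgeR). The ubiquitous Cox7a2 was at 99.5, 89.9, 101 and 89.3 against 106, 108, 94 and 102 CPM, with overlap (-0.11, standard error 0.07). Here the ubiquitous form was the more abundant per kilobase, at 156 ± 9.27 against 74.3 ± 13.3 CPM per kb. For subunit 8, the muscle-type Cox8b was at 38.8, 35, 33.7 and 35.8 against 45.6, 38.9, 40.2 and 43.6 CPM, which just did not overlap (-0.23, standard error 0.08, adjusted p = 0.132, edgeR). The ubiquitous Cox8a was at 79.3, 84.9, 102 and 85.6 against 99.8, 95.9, 84 and 87.4 CPM, with overlap (-0.06, standard error 0.09), and at 167 ± 13.3 against 117 ± 8.52 CPM per kb it stood above Cox8b.

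The balance within each pair was compared as a ratio of counts in the same library, which does not depend on library scaling. The ratio of Cox6a2 to Cox6a1 was 2.64 ± 0.245 in ΔDMR1-U2 and 2.4 ± 0.228 in wild-type muscle (SD, n = 4 each), a log2 difference of 0.14 (95% interval -0.11 to 0.42, exact permutation p = 0.2, two-sided). It was 0.09 when ΔDMR1-U2 library 1A or else wild-type 1B was left out, and 0.03 without ΔDMR1-U2 libraries 1A and 1B. The ratio of Cox7a1 to Cox7a2 was 0.25 ± 0.0237 against 0.285 ± 0.0483, a log2 difference of -0.18 (-0.68 to 0.09, exact permutation p = 0.257), and -0.06 without wild-type library 3, the highest of the 8 at 0.357. Without ΔDMR1-U2 libraries 1A and 1B it was -0.23. The ratio of Cox8b to Cox8a was 0.412 ± 0.0659 against 0.46 ± 0.0397, a log2 difference of -0.17 (-0.60 to 0.27, exact permutation p = 0.314). It was -0.07 without ΔDMR1-U2 library 2, -0.26 without ΔDMR1-U2 library 1A and -0.31 without ΔDMR1-U2 libraries 1A and 1B. After adjustment over the 3 pairs all were at 0.314, and the smallest p the design allows is 0.0286. The groups overlapped for each ratio. Whether the 3 pairs differed from each other was not tested.

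**Figure D4:**
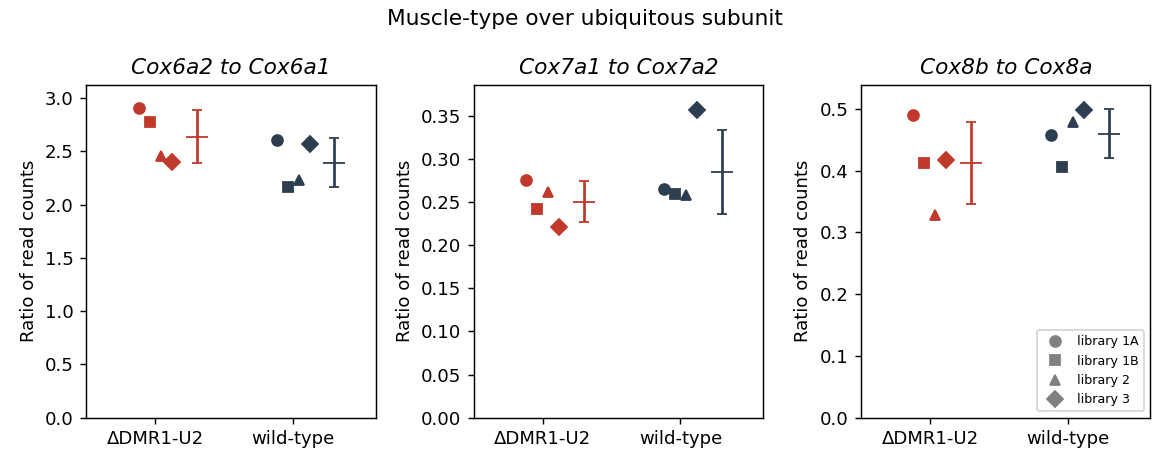
Ratio of read counts of the muscle-type to the ubiquitous subunit gene (y axes, from 0) in every library of the 2 groups (x axes), for Cox6a2 to Cox6a1, Cox7a1 to Cox7a2 and Cox8b to Cox8a; marker shapes give the library name, and bars the mean and 1 SD (n = 4). The groups overlap in all 3 panels, and wild-type library 3 lies above the others for Cox7a1 to Cox7a2.

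Promoters of Cox8b and Cox8a are shown because this pair differed in the motifs searched, and that of Cox6a1 because it held the motif most common in the set. Cox7a1 and Cox7a2 held none of the letters searched, and the promoter of Cox6a2 was not analysed here. Each runs from 250 bases before to 50 bases after the start of the gene, 5′ to 3′ in the direction of the gene, from the RefSeq promoters of GRCm38.p6, all on the minus strand. Capitals mark matches on either strand to GCGCANGCG (the motif of NRF1, nuclear respiratory factor 1) in Cox6a1, CAGCTG (an E-box that myogenic factors bind) in Cox8b, and CCGGAAGT (a motif of ETS factors such as GABP) in Cox8a. In Cox6a1 (chr5:115348909-115349208) the matches begin 162, 161 and 117 bases before the start, and the first and second overlap on opposite strands. In Cox8b (chr7:140900397-140900696) they begin 19 bases before and 17 bases after it, and in Cox8a (chr19:7217567-7217866) 6 bases before and 32 bases after it.
Cox6a1: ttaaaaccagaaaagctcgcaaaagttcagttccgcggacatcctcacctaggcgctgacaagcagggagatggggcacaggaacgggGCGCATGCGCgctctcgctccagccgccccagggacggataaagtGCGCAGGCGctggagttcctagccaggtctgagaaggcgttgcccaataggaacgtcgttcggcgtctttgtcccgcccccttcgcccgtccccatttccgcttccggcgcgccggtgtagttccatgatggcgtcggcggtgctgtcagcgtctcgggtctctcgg
Cox8b: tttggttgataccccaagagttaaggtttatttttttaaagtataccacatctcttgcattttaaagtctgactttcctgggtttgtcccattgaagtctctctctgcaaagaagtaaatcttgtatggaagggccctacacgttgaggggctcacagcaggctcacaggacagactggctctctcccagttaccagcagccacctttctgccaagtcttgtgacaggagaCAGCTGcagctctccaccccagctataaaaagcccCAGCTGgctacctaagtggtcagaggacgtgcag
Cox8a: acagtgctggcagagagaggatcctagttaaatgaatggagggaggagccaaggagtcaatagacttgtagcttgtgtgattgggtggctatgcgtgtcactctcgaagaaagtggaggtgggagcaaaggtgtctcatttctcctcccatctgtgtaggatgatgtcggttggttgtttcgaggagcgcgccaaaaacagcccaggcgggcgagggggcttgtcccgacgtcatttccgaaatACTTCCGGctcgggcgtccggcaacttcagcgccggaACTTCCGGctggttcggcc

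In complex V, 16 of 17 genes, Atp5s and Atp5sl included, were below 0 (against 50.2% of all genes), with a median of -0.18. Of those below 0, 8 had an unadjusted p under 0.05 (edgeR, against 10.9% of all genes), and 2 were called (edgeR, against 0.617% called lower). For the subunits alone, all 15 were below 0, with a median of -0.18. Both called genes code for subunit c, the ring that turns in the membrane as protons pass. Atp5g1, Atp5g2 and Atp5g3 give the same mature protein and differ in the peptide that directs import into mitochondria. Atp5g3 (ENSMUSG00000018770.9, chr2:73908447-73911326 of mm10, minus strand) was at 251, 232, 262 and 262 CPM with the deletion and 339, 326, 297 and 322 CPM in wild-type muscle. The groups were apart, and Atp5g3 fell by 0.35 (log2, standard error 0.07, adjusted p = 0.0426, edgeR; 0.053 with libraries scaled by total counts). Atp5g1 (ENSMUSG00000006057.15, chr11:96068852-96075670 of mm10, minus strand) was at 78.3, 76.6, 89.6 and 75.9 against 116, 101, 95.1 and 108 CPM. Here too the groups were apart, with the 2 libraries named 2 closest, and Atp5g1 fell by 0.39 (log2, standard error 0.08, adjusted p = 0.0475, edgeR). With 1 library left out at a time the log2 fold change ran from -0.38 to -0.31 for Atp5g3 and from -0.45 to -0.34 for Atp5g1, with adjusted p up to 0.138 and 0.149 (edgeR). Without ΔDMR1-U2 libraries 1A and 1B, Atp5g3 was at -0.30 (adjusted p = 0.17, edgeR) and Atp5g1 at -0.35 (adjusted p = 0.185, edgeR). Atp5g2 was at 39.6, 39.7, 39.7 and 41.6 against 43.1, 39.7, 40.4 and 42.4 CPM, nearly the same in all 8 libraries (-0.04, standard error 0.06, and 0.01 with libraries scaled by total counts).

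Within the counts of the 3 subunit c genes, Atp5g3 held 67.7% ± 1.08 in the ΔDMR1-U2 group and 68.7% ± 0.809 in the wild-type group, Atp5g1 21.5% ± 1.21 and 22.4% ± 0.747, and Atp5g2 10.8% ± 0.53 and 8.87% ± 0.375 (SD, n = 4 each). The share of Atp5g2 was 10.1% to 11.4% in the ΔDMR1-U2 group and 8.51% to 9.35% in the wild-type group, without overlap; it was looked at after the values of the 3 genes were seen and was not tested. Their summed level was 372 ± 18.3 CPM (348 to 391) against 468 ± 27.1 CPM (432 to 498; SD, n = 4 each), also without overlap. Values of Atp5g1 and Atp5g2 are uncertain, because 66% and 100% of the 50-base windows of their transcripts occur in 3 and 2 pseudogenes, while Atp5g3 shares 0%. How the authors counted reads that match several places is not stated in the labels.

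The promoters of the 2 called genes of the ring are shown because these genes, which both fell, differed in the motifs searched. They come from the same RefSeq table, both on the minus strand, and capitals mark GCGCANGCG and CAAGGTCA, the motif of oestrogen-related receptors, on either strand. In Atp5g3 (chr2:73911277-73911576) the receptor motif begins 52 bases before the start and the NRF1 motif 14 bases after it. In Atp5g1 (chr11:96075582-96075881) none of the letters searched are in this window.
Atp5g3: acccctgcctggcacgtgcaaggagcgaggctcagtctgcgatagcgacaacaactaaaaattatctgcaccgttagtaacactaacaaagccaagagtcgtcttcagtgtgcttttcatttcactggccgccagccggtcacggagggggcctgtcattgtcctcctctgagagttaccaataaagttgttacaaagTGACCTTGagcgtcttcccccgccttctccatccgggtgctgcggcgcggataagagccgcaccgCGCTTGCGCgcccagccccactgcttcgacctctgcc
Atp5g1: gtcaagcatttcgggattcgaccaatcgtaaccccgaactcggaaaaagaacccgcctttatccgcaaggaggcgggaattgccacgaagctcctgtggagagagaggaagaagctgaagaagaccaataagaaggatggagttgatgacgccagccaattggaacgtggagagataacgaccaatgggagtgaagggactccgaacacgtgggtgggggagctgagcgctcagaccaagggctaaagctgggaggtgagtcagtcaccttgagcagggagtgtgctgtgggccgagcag

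The ring had a median of -0.35. The catalytic head, central stalk, peripheral stalk and the other membrane subunits had medians of -0.17, -0.14, -0.18 and -0.27. Of their genes, 0 were called by edgeR and 1, Atp5k, by DESeq2, which called 3.32% of all genes lower. The difference between the ring and the other parts was not tested. Atp5b, the catalytic beta subunit and the most abundant gene of the set per kilobase (1007 ± 73.9 CPM per kb in wild-type muscle, SD, n = 4), was at 1675, 1691, 1726 and 1717 against 2004, 1931, 1730 and 2050 CPM. Its groups were apart, by a small margin at wild-type library 2 (-0.18, standard error 0.07, adjusted p = 0.197, edgeR). Atp5a1, the alpha subunit, was second at 642 ± 62.9 CPM per kb and stood at -0.16, with overlap. Atp5c1, Atp5d and Atp5e of the central stalk were at -0.09, -0.19 and -0.14, and Atp5f1, Atp5h, Atp5j and Atp5o of the peripheral stalk at -0.17, -0.18, -0.26 and -0.18, all with overlap. Of the small membrane subunits, Atp5k was at 86.7, 73.1, 90.9 and 70.5 against 111, 103, 96.6 and 96.6 CPM, without overlap (-0.34, adjusted p = 0.0834, edgeR). Atp5j2 and Atp5l were at -0.27 and -0.08. Summed over the 17 genes, complex V was at 4801 ± 173 CPM against 5459 ± 417 CPM (SD, n = 4 each). The ranges of 4693 to 5060 and 4892 to 5882 CPM overlapped. The subunits alone came to 4783 ± 175 against 5442 ± 417 CPM (SD, n = 4 each).

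The genes with an Atp5 symbol that are not subunits were not called. Atp5sl, a factor of complex I assembly, was at 12.8, 16.7, 11.7 and 14.8 against 11.4, 10.3, 12 and 12.2 CPM, with overlap (0.29, standard error 0.12, adjusted p = 0.196, edgeR), and Atp5s was at -0.03.

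**Figure D5:**
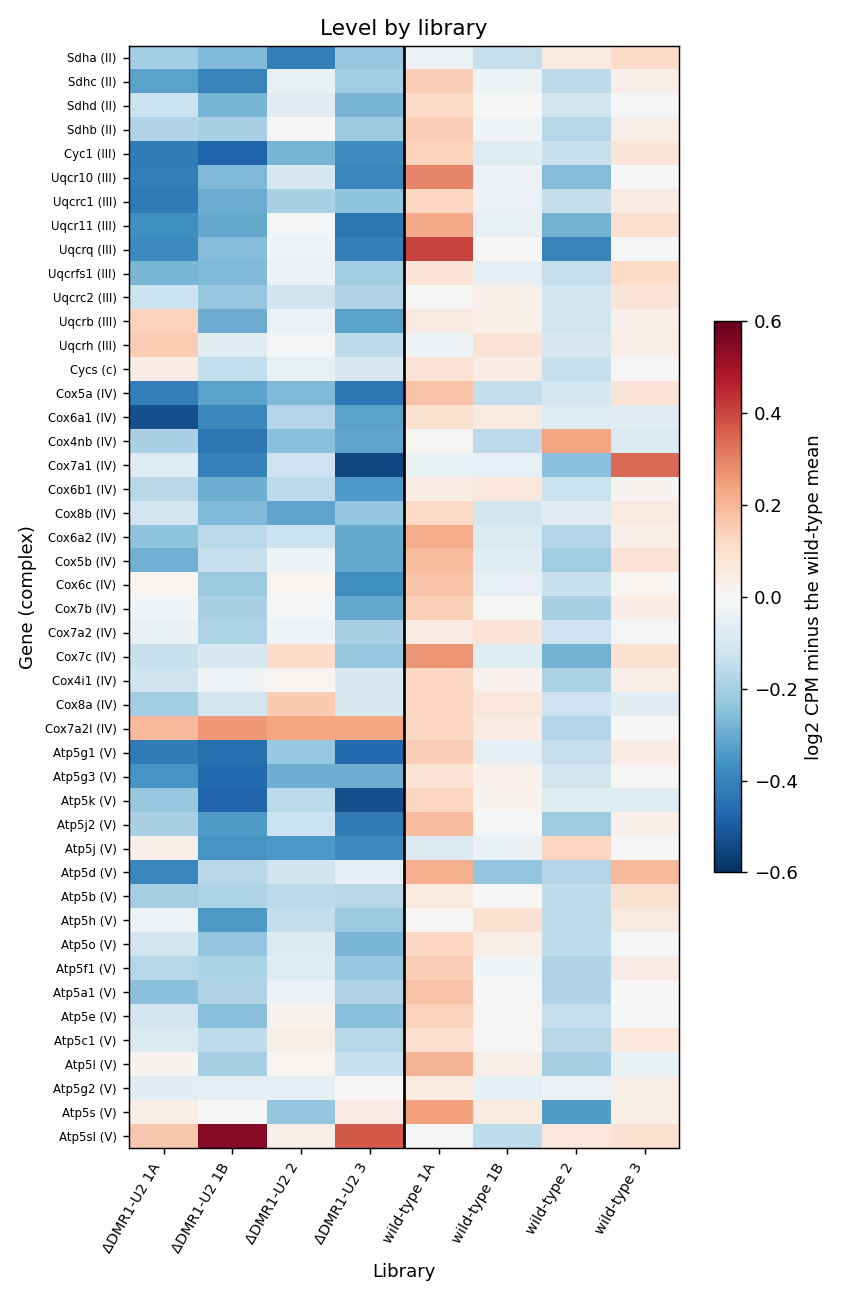
Log2 CPM minus the wild-type mean (colour, blue below and red above 0) for 46 genes (y axis, complex in brackets) in the 8 libraries (x axis); Cox4i2 and Cox6b2, at low counts, are left out. Most cells of the ΔDMR1-U2 libraries are blue, ΔDMR1-U2 library 2 is the palest of the 4, Cox7a2l is red in all 4, and wild-type library 2 is mostly blue as well.

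Other genes of the pathway are given by list. Genes with an Ndufa, Ndufb, Ndufc, Ndufs or Ndufv symbol were taken for complex I, which passes electrons from NADH to ubiquinone. Whether each, Ndufa4 included, belongs to that complex was not checked. Of the 35 tested, 34 were below 0 (97.1%, against 50.2% of all genes). Their median was -0.22. The groups did not overlap for 12, all lower (34.3%, against 6.38% of all genes). At an unadjusted p under 0.05 (edgeR), 21 were lower (60%, against 10.9% of all genes). Of the 35, 1 was called, Ndufa8, which fell by 0.41 (adjusted p = 0.0301, edgeR), against 0.617% of all genes. DESeq2 called 7 of the 35 lower, against 3.32% of all genes. Assembly factors of complex II (3 tested, median -0.15), complex III (4, -0.07) and complex IV (12, -0.07) had 0 called by edgeR and 0 by DESeq2, with 1, 0 and 3 lower at an unadjusted p under 0.05. The 5 tested assembly and inhibitor genes of ATP synthase had a median of -0.24 and 0 called by edgeR, with 3 lower at an unadjusted p under 0.05 and 2 called by DESeq2; Atpif1, the inhibitor of its reverse reaction, was at -0.31 (adjusted p = 0.0945, edgeR) and the assembly factor Tmem70 at -0.24 (adjusted p = 0.0962, edgeR). Of 15 regulators of mitochondrial biogenesis, 0 were called by edgeR and 0 by DESeq2, with a median of 0.03 and a range of -0.50 to 1.00. At an unadjusted p under 0.05 (edgeR), 2 were lower, Esrrb (-0.50) and Ppard (-0.30), and 1 was higher, Ppara (1.00). Over all genes 10.9% were lower and 10.4% higher by that rule. Ppara was at 109 CPM in ΔDMR1-U2 library 1B and at 31.6 to 36.9 CPM in the other ΔDMR1-U2 libraries. Ppargc1a, a coactivator of respiratory genes, was at 0.12, Nrf1 at 0.03 and Esrra at -0.14. Of 21 genes that mark mitochondrial content, 0 were called by edgeR and 2 lower by DESeq2, and 5 were lower at an unadjusted p under 0.05 (edgeR), with a median of -0.12; Cs, citrate synthase, was at -0.25 (adjusted p = 0.069, edgeR) and Immt, a protein of the cristae, at -0.25 (adjusted p = 0.0575, edgeR).

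Sequence features that the choice of genes did not use were also set beside the values. Of 38 genes of the set found in the promoter table, 13 (34.2%) held GCGCANGCG on either strand, against 7.03% of all 27025 genes in the table. The ETS letters CCGGAAGT were in 4 (10.5%) against 4.31%, the receptor letters CAAGGTCA in 3 (7.89%) against 1.76%, the E-box CAGCTG in 2 (5.26%) against 18.3%, and the MEF2 motif in 0 against 0.636%. Counted per promoter rather than per gene, the shares of all 32851 were 6.25%, 3.89%, 1.56%, 16.3% and 0.557%. The 13 genes with the NRF1 letters and the 24 tested genes without them had medians of -0.18 and -0.17. The 17 genes with 10% or more of their 50-base windows in other genes had a median of -0.16, and the other 31 a median of -0.19. The 13 genes with exons that overlap another gene on the other strand had a median of -0.17, and the other 35 a median of -0.18. These are descriptions of the windows and counts, with no test.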

How the data were processed

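Total RNA depleted of ribosomal RNA was sequenced, per the labels' protocols, from skeletal muscle, in 4 samples with the deletion and 4 without. Per the submitters' processing notes, the build was mm10 and reads were handled with TopHat2 2.0.9, Bowtie2 2.1.0, HTSeq 0.5.4p3, DESeq2 1.4.5 and FastQC 0.10.1. Not given in the sources used here are the annotation, the strand setting and the handling of reads with several matches. Per the file headers, the table holds raw read counts per gene and sample. It also holds the authors' normalised mean counts (a signal), their fold ratio of wild-type over ΔDMR1-U2 and its log2, and their p-values, of which only the adjusted p-value was used.

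Raw counts were tested with edgeR 4.0.16 (R 4.3.3): filterByExpr at a minimum count of 10 kept 15241 genes, libraries were scaled by TMM, and the quasi-likelihood test was adjusted by Benjamini-Hochberg. The biological coefficient of variation was 12.3%. Alternatives were scaling by total counts or relative log expression, DESeq2 1.42.0, no filter, each library left out, ΔDMR1-U2 libraries 1A and 1B left out, and a replicate block. Ratios of isoforms were compared with exact permutation tests, two-sided, with 95% intervals from shifted permutations. Coordinates and transcript lengths (the shortest best-ranked principal transcript) come from GENCODE vM21, with 48 symbols matched directly and 2 by an older symbol. With the longest such transcript, Cox6c, Atp5g1 and Atp5h took lower places per kilobase within their complex and Atp5g2 came below Atp5l. Genes named with values are those called, both genes of the 3 isoform pairs, and per complex the highest and lowest log2 fold change and the highest level per kilobase; other values named were chosen after they were seen. The members, lists and tests were chosen with earlier results of these data known.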

Additional observations from a re-analysis of the deposited data

Results flagged for a closer look

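Of 112 groups of 4 values checked for a sample far from the other 3, 7 stood out; chance alone gives about 5%. Among ΔDMR1-U2 libraries, Atp5j was at 79.6 CPM in library 1A (59.7 to 61.3 in the others), Sdhb at 132 CPM in library 2 (113 to 116), Atp5g2 at 41.6 CPM in library 3 (39.6 to 39.7), and Cox4i2 at 0.715 CPM in library 1A (1.37 to 1.49). The summed level of complex V, Atp5s and Atp5sl included, was at 5060 CPM in ΔDMR1-U2 library 2 (4693 to 4735). Among wild-type libraries, Uqcrb was at 61.4 CPM in library 2 (67.6 to 68.7), and the count ratio of Cox7a1 to Cox7a2 was 0.357 in library 3 (0.258 to 0.265). Without ΔDMR1-U2 library 1A, Atp5j was the only member called lower (edgeR).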

How the results depend on the processing

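The median log2 fold change of the members stayed between -0.22 and -0.13 under all 15 alternatives, and 0 members were called higher in any. The 3 isoform ratios kept their direction under the 10 alternatives run for them, which left out libraries or added the replicate block. The number of members called lower was 3. It was 9 by DESeq2, 0 without ΔDMR1-U2 libraries 1A and 1B, 0 with a replicate block on the library name and 0 with a replicate block on its number. It ran from 0 to 6 with 1 library left out, at 6 without ΔDMR1-U2 library 2. Over all genes 172 were called, against 930 by DESeq2, 16 without ΔDMR1-U2 libraries 1A and 1B, and 13 and 9 with the replicate blocks on name and number. That count ran from 7 to 631 with 1 library left out. Scaling by total counts gave 139 higher and 77 lower over all genes, against 78 and 94. Deviations of same-named libraries from their group means correlated at -0.216, -0.182, -0.0839 and -0.0802 over 15241 genes. Between libraries of different names in the 2 groups, the correlations ran from -0.248 to 0.361. These values cannot show whether same-named libraries belong together. Of 720 values of single genes under the alternatives, 665 kept direction and side of the threshold, 31 lost a call, 11 gained one and 13 changed sign, in 6 genes: Cox8a, Atp5g2, Atp5s, Uqcrh and Cox4i2, at -0.06 to -0.02, and Cox6b2, at 0.20. With total counts Atp5g2 was at 0.01, Uqcrh at 0.03, Cox4i2 at 0.02 and Atp5s at 0.02. Without ΔDMR1-U2 libraries 1A and 1B, Cox6b2 was at -0.04, Cox8a at 0.03 and Cox4i2 at 0.13. With 1 library left out, Uqcrh ran from -0.07 to 0.03, Cox4i2 from -0.13 to 0.17 and Atp5s from -0.13 to 0.04. Why calls and signs changed between settings was not tested.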
